A study of Mus musculus with 6 samples.

Results

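The 10 genes described here encode the interchangeable parts of the proteasome, the particle that degrades ubiquitin-tagged proteins in the cytosol and nucleus. They were chosen by name from the 36706 entries of each expression table: the constitutive catalytic subunits Psmb5, Psmb6 and Psmb7, their immunoproteasome counterparts Psmb8, Psmb9 and Psmb10, and the activators Psme1, Psme2, Psme3 and Psme4. The study sequenced RNA of wild-type (WT) mouse macrophages derived from bone marrow, in 3 untreated libraries and 3 libraries from cells treated with IFN-γ (interferon-gamma) for 3 h. The cells of both groups had been grown from bone marrow with the growth factor M-CSF at 20 ng/mL, 10% serum and 1% antibiotics, with new medium on days 3 and 5. The labels give no dose of IFN-γ and no age or sex of the mice, and they do not say whether replicates are separate mice or wells. The p-values therefore measure only the spread between these libraries, which may be technical.

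The core particle is a barrel of stacked alpha and beta rings, and its cutting sites lie inside, on the beta subunits. Psmb5 cuts mainly after hydrophobic residues, Psmb6 after acidic residues and Psmb7 after basic residues. Interferons induce Psmb8 (also called LMP7), Psmb9 (LMP2) and Psmb10 (MECL-1), which take the places of Psmb5, Psmb6 and Psmb7 in newly built particles. The resulting immunoproteasome is known for making peptide ends that fit MHC class I molecules, and haematopoietic cells hold some of it at rest. Activators cap the barrel: Psme1 and Psme2 form the PA28αβ ring in the cytosol, Psme3 forms the PA28γ ring in the nucleus, and Psme4 is the single-chain activator PA200.

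Promoter sequence is shown first because the comparisons set genes that interferons are known to induce against genes that most cells express steadily. RefSeq promoter windows of build GRCm38.p6, from 250 bases before to 50 bases after the gene start, were matched for 9 of the 10 genes. No window was available for Psmb7. The 6 shown are those of the other catalytic subunits and of Psme1. Those of Psme2, Psme3 and Psme4, which also enter the comparisons, are described but not printed. Capitals mark every match to 5 motifs searched on both strands: GAS (TTCNNNGAA), ISRE (GAAA, any 2 bases, GAAA), κB (GGGA, any base, TTTCC), the GC box (GGGCGG) and the antioxidant response element, ARE (TGACNNNGC). None of the matches overlaps a match of another motif. The windows are chr17:34197945-34198244 on the plus strand for Psmb8, chr14:54617946-54618245 on the minus strand for Psmb5, chr17:34187281-34187580 on the minus strand for Psmb9, chr11:70525107-70525406 on the plus strand for Psmb6, chr8:105938343-105938642 on the minus strand for Psmb10 and chr14:55578244-55578543 on the plus strand for Psme1, each printed 5′ to 3′ along its gene.
Psmb8: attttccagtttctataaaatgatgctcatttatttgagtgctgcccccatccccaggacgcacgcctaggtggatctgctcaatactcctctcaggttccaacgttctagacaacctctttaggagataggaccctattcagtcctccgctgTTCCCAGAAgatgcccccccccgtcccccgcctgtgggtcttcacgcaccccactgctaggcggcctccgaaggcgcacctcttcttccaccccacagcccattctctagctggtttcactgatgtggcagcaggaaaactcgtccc
Psmb5: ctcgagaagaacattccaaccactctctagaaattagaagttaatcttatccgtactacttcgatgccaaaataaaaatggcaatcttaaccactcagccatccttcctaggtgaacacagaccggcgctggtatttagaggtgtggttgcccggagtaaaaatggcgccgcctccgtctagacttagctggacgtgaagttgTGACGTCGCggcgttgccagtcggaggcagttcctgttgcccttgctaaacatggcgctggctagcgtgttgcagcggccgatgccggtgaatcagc
Psmb9: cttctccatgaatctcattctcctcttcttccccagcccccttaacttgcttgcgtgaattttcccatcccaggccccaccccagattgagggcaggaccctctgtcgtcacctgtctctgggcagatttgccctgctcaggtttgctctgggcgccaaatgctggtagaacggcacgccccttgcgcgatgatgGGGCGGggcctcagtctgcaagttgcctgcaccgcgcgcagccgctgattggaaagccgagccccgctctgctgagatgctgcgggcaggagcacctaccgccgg
Psmb6: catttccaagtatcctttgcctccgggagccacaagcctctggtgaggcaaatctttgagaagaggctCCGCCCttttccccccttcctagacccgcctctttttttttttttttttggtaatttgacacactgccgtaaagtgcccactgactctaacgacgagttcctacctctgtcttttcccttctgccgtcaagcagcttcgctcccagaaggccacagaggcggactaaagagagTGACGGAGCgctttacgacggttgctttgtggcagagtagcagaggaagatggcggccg
Psmb10: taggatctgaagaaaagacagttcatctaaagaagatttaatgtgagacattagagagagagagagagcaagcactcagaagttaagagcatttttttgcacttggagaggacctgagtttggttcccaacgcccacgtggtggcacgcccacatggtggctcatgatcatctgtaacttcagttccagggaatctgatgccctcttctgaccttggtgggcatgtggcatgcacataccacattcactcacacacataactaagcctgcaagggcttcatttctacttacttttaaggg
Psme1: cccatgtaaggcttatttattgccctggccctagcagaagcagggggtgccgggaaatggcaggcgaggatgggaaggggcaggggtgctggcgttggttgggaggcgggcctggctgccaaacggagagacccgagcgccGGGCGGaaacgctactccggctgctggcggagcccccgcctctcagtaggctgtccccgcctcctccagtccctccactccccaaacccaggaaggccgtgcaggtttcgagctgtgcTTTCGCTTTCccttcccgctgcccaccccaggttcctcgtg

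The Psmb8 window holds a GAS match, the interferon-gamma-activated sequence, from -97 to -89 relative to the first base of the gene, counted as 0. The Psme1 window holds an ISRE match, the pattern of interferon regulatory factors, from 9 to 18 on the minus strand, and a GC box from -109 to -104. The Psmb9 window holds a GC box, the pattern of SP1-type factors, from -55 to -50. Of the constitutive subunits, Psmb5 has an ARE match, the pattern of NRF2 and NRF1, from -47 to -39, and Psmb6 has one from -9 to -1 together with a GC box from -182 to -177. Psme2 has 2 GC boxes, Psme4 a GC box and an ARE match, and the windows of Psmb10 and Psme3 hold no match. The share of all 32851 promoter windows with at least one match is 8.3% for GAS, 3.44% for ISRE, 0.411% for κB, 35.7% for the GC box and 12.4% for ARE. A match describes letters in the window and is not a site, and no match says only that these letters are not there.

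IFN-γ raised all 3 immunoproteasome catalytic subunits, both PA28αβ genes and Psme4, while Psmb5, Psmb6, Psmb7 and Psme3 did not pass the test. The rises ran from 1.40-fold for Psme4 to 2.89-fold for Psmb9. In numbers, 6 of 10 genes were higher, 0 lower and 4 not called at a Benjamini-Hochberg adjusted p under 0.05 in edgeR's quasi-likelihood test. Of all 12968 genes tested, 19.6% were higher and 16.8% lower. The values of the 2 groups did not overlap for 7 of the 10, all higher with IFN-γ, against 25.9% of all genes in that direction. Levels are given as CPM, counts per library size corrected by TMM, a scaling that assumes most genes do not change, and fold changes are on the log2 scale with their standard error (SE). All 10 passed the filter on low counts, and their lowest count was 1305.

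**Figure D1:**
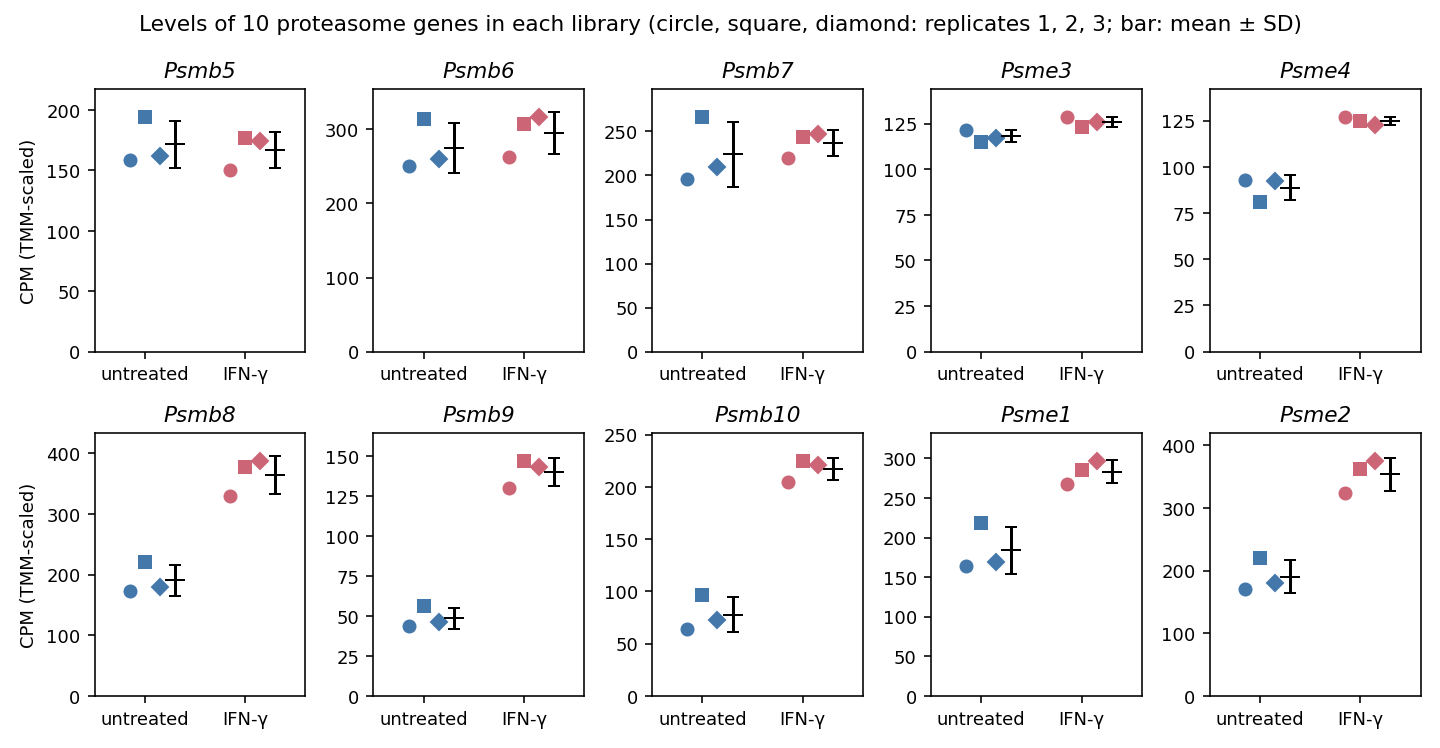
Level in CPM (TMM-scaled, axes from 0) of each of 10 proteasome genes in 3 untreated (blue) and 3 IFN-γ (red) libraries, with the mean ± SD as a bar beside each group. The groups overlap for Psmb5, Psmb6 and Psmb7, and untreated replicate 2 (square) is the highest untreated library in 8 of the 10 panels.

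Psmb8, the inducible partner of Psmb5, was at 172.3, 220.3 and 180.0 CPM in the untreated libraries and at 329.1, 377.7 and 387.1 CPM with IFN-γ. The lowest treated library lay well above the highest untreated one. Its rise on the log2 scale was 0.93 ± 0.11, or 1.91-fold (adjusted p = 0.000243, edgeR). Psmb9, the partner of Psmb6, stood at 43.4, 55.9 and 45.9 CPM untreated and at 129.9, 146.7 and 143.0 CPM treated. It had the lowest untreated level of the 3 inducible subunits and the largest rise, by 1.53 ± 0.10, or 2.89-fold (adjusted p = 9.38e-06, edgeR). Psmb10, the partner of Psmb7, had 64.1, 96.1 and 73.0 CPM untreated and 204.7, 224.5 and 220.7 CPM treated. Its groups were apart in every library, with a rise of 1.48 ± 0.14, or 2.79-fold (adjusted p = 6.98e-05, edgeR). By size of log2 fold change, Psmb9 ranked 440, Psmb10 468 and Psmb8 894 among the 12968 genes tested, of which 800 rose at least 2-fold and passed the test.

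The constitutive catalytic subunits stayed within the spread of the libraries. Psmb5 was at 158.5, 194.1 and 161.8 CPM untreated and at 150.0, 176.5 and 174.7 CPM with IFN-γ, a log2 fold change of -0.04 ± 0.10 (95% interval -0.26 to 0.19). Psmb6 was at 250.4, 313.5 and 260.0 CPM against 263.3, 306.9 and 316.6 CPM, or 0.11 ± 0.10 (-0.13 to 0.35). Psmb7 was at 196.2, 266.2 and 209.3 CPM against 220.2, 243.7 and 246.7 CPM, or 0.08 ± 0.11 (-0.18 to 0.34). The groups overlapped for each of these genes, and the adjusted p-values were 0.799, 0.470 and 0.622 (edgeR). The upper ends of these intervals correspond to 1.14-fold, 1.27-fold and 1.27-fold. Without untreated replicate 2, Psmb6 rose by 0.21 (adjusted p = 0.0495) and Psmb7 by 0.22 (adjusted p = 0.016), whereas Psmb5 was at 0.06 (adjusted p = 0.53). That library, the highest of the untreated ones for all 3, is described with the other subunits.

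Among the activators, Psme1, the PA28α subunit, was at 164.0, 218.4 and 169.1 CPM untreated and at 268.3, 285.2 and 296.4 CPM with IFN-γ. It rose by 0.62 ± 0.11, or 1.54-fold (adjusted p = 0.00275, edgeR). Psme2, the PA28β subunit, was at 171.0, 220.1 and 179.6 CPM untreated and at 324.5, 362.7 and 374.7 CPM treated. Its groups were also apart, and the rise was 0.90 ± 0.10, or 1.86-fold (adjusted p = 0.000275, edgeR). Psme4 (PA200), which promotes degradation of acetylated histones, was at 93.1, 81.0 and 92.4 CPM untreated and at 126.9, 124.6 and 122.9 CPM treated. All 3 treated values lay above all untreated ones, a rise of 0.49 ± 0.07, or 1.40-fold (adjusted p = 0.00068, edgeR). Psme3 (PA28γ), whose ring promotes degradation of intact proteins without ubiquitin, was at 121.6, 115.0 and 117.4 CPM untreated and at 128.6, 123.3 and 125.9 CPM treated. Although every treated value was above every untreated one, the log2 fold change of 0.09 ± 0.05 did not pass the test (95% interval -0.03 to 0.21, adjusted p = 0.203, edgeR).

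Levels can be compared between genes only per length, as FPKM (counts divided by exon length and library total). In untreated macrophages the order of mean FPKM (± SD, n = 3) was Psmb6 at 258.8 ± 25.5, Psmb7 at 224.0 ± 31.5, Psmb5 at 208.4 ± 18.5, Psme2 at 206.0 ± 23.2, Psme1 at 198.9 ± 27.3 and Psmb8 at 165.1 ± 18.1. The immunoproteasome subunits Psmb10 at 64.7 ± 12.1 and Psmb9 at 46.1 ± 5.15 FPKM followed, then Psme3 at 30.4 ± 1.46 and Psme4 at 12.3 ± 1.23 FPKM. Within libraries each gene was above the next in all 3 and by more than the SD of the ratio, apart from Psmb5 and Psme2. With IFN-γ the order was Psme2 at 341.3 ± 23.4, Psmb8 at 280.9 ± 22.5, Psme1 at 273.2 ± 12.1, Psmb6 at 248.0 ± 22.5, Psmb7 at 211.1 ± 11.8 and Psmb5 at 180.7 ± 15.2 FPKM. Psmb10 at 160.7 ± 7.07, Psmb9 at 118.7 ± 6.94, Psme3 at 28.8 ± 0.720 and Psme4 at 15.4 ± 0.337 FPKM kept the last 4 places in the same order. In the treated order the neighbours Psmb8 and Psme1 did not differ beyond their spread. So Psme2, Psmb8 and Psme1 stood above all 3 constitutive catalytic subunits after 3 h, and Psmb9 and Psmb10 remained below them. Sequence shared with other genes, 54.1% of Psmb5 and 54.9% of Psme2, leaves the places of these 2 genes uncertain. The FPKM values carry no TMM factor, so a constitutive gene can be lower in FPKM and level in CPM.

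The share of each catalytic position taken by the inducible transcript rose in every library. Psmb8 made up 43.6, 44.7 and 44.2% of the FPKM of Psmb8 and Psmb5 untreated and 61.0, 60.4 and 61.2% with IFN-γ. By these counts the inducible transcript was the minor one of this pair before treatment and the major one after it. Shares that include Psmb5 are uncertain in level, because 54.1% of its sequence is shared with other genes. Which transcript of this pair was the larger is therefore uncertain too. Psmb9 made up 14.9, 15.3 and 15.1% of the sum of Psmb9 and Psmb6 untreated and 33.3, 32.6 and 31.4% treated. Psmb10 made up 21.4, 23.1 and 22.5% of the sum of Psmb10 and Psmb7 untreated and 43.6, 43.4 and 42.7% treated. In the last 2 pairs the constitutive transcript remained the more abundant one. Over the 6 catalytic genes together, the inducible ones held 28.5 ± 0.407% of the FPKM untreated and 46.7 ± 0.358% with IFN-γ (mean ± SD, n = 3). These are shares of transcript, and the protein composition of the particles was not measured.

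**Figure D2:**
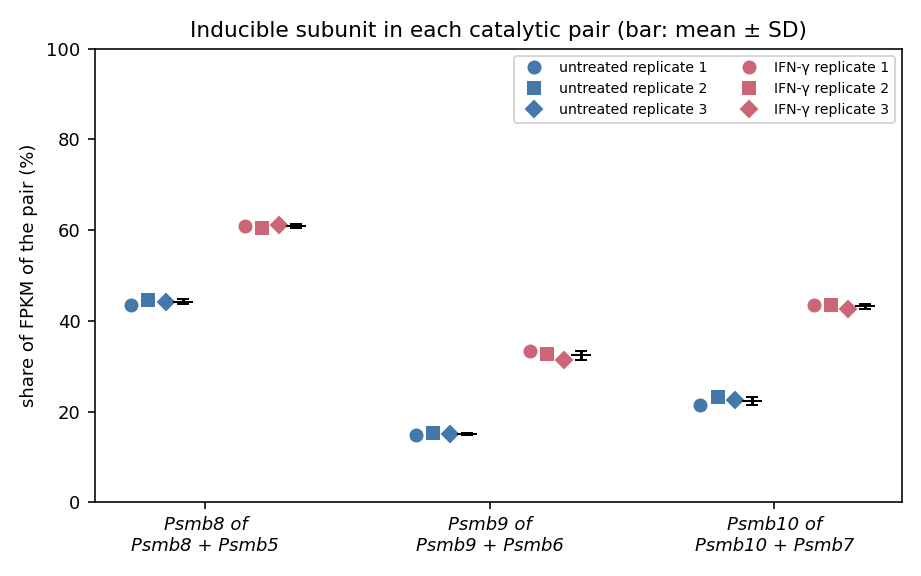
Share of each catalytic pair's summed FPKM held by the inducible subunit, in percent (axis from 0 to 100), for each library (symbols) with the mean ± SD of each group as a bar. The spread within a group is small against the gap between groups. By these counts Psmb8 alone becomes the larger part of its pair with IFN-γ, but sequence shared with other genes leaves the level of Psmb5 uncertain.

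Whether an inducible subunit changed more than its counterpart was tested directly, by fitting every gene relative to the count of the counterpart in the same library (edgeR's quasi-likelihood test, Benjamini-Hochberg over all 12968 genes). This quantity does not depend on how libraries are scaled. Psmb8 rose relative to Psmb5 by 0.97 ± 0.07 (95% interval 0.81 to 1.14, adjusted p = 5e-05), where 12.4% of all genes rose relative to Psmb5. Psmb9 rose relative to Psmb6 by 1.43 ± 0.09 (1.23 to 1.64, adjusted p = 2.7e-05, background 9.27%). Psmb10 rose relative to Psmb7 by 1.41 ± 0.09 (1.20 to 1.61, adjusted p = 3.9e-05, background 8.8%). The SE of each of these differences was smaller than that of the inducible gene alone. Each constitutive subunit was highest among the untreated libraries where its partner was, in replicate 2. This was not particular to the pairs: it held for 30 of 31 other core and 19S subunits and for 41.4% of all genes. Over 10 alternatives the 3 differences kept their calls and lay between 0.96 and 0.99, 1.40 and 1.47, and 1.37 and 1.44. As ratios of FPKM, Psmb8 to Psmb5 went from 0.791 ± 0.0171 to 1.55 ± 0.028, Psmb9 to Psmb6 from 0.178 ± 0.00253 to 0.48 ± 0.0214, and Psmb10 to Psmb7 from 0.288 ± 0.0144 to 0.762 ± 0.0151 (mean ± SD, n = 3). An exact two-sided permutation test of each log2 ratio gave p = 0.1, the smallest that 3 libraries against 3 allow, and 0.122 after adjustment over 11 pairs.

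The inducible subunits did not rise by one common factor. Psmb9 rose relative to Psmb8 by 0.60 ± 0.08 (95% interval 0.41 to 0.79, adjusted p = 0.00028) and Psmb10 relative to Psmb8 by 0.56 ± 0.09 (0.34 to 0.77, adjusted p = 0.000748), where 3.89% of all genes rose relative to Psmb8 (edgeR). These pairs, and those of Psme2 with Psme1 and of Psme4 with Psme3, were chosen after their values were seen. Psmb8 had the highest untreated level of the 3 (165.1 FPKM) and the smallest rise. Psmb9 had the lowest level (46.1 FPKM), but its rise of 1.53 ± 0.10 was not tested against that of Psmb10, 1.48 ± 0.14. A link between untreated level and rise was not tested.

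The activators split differently from the catalytic pairs. Relative to Psme3, where 15.3% of all genes rose, Psme1 rose by 0.53 ± 0.12 (95% interval 0.24 to 0.81, adjusted p = 0.00964) and Psme2 by 0.80 ± 0.12 (0.53 to 1.07, adjusted p = 0.000885, edgeR). Relative to Psme4, where 7.75% rose, Psme1 was at 0.12 ± 0.16 with an adjusted p of 0.517 and an interval from -0.26 to 0.49, so that no difference was detected between them. Psme2 rose relative to Psme4 by 0.39 ± 0.15 (0.03 to 0.75, adjusted p = 0.0452), a call lost without any 1 library other than untreated replicate 2 (adjusted p up to 0.135 over 10 alternatives). Without untreated replicate 2, Psme1 rose relative to Psme4 by 0.34 (adjusted p = 0.00096). Psme2 rose relative to Psme1 by 0.27 ± 0.08 (0.09 to 0.45, adjusted p = 0.0141, background 5.3%), a call lost in 4 of 10 alternatives: with the replicate block (adjusted p = 0.0533) and without untreated replicate 1, IFN-γ replicate 2 or IFN-γ replicate 3 (adjusted p up to 0.0717). The FPKM ratio of Psme2 to Psme1 went from 1.04 ± 0.0275 to 1.25 ± 0.0341. Psme4 rose relative to Psme3 by 0.40 ± 0.06 (0.25 to 0.55, adjusted p = 0.00141). Psme4 has 7649 exon bases and Psme1 and Psme2 have 977 each, and the part of transcript length in these ratios was not tested.

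**Figure D3:**
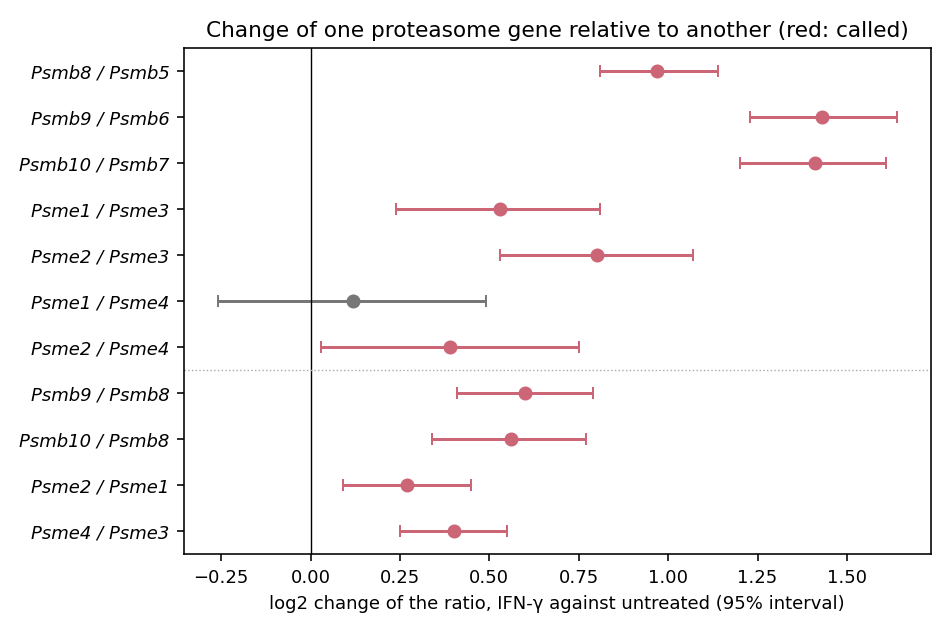
Log2 change with IFN-γ of one proteasome gene relative to another (point) with its 95% interval (bar). The pairs above the dotted line follow the design and those under it were chosen after their values were seen. Psme1 relative to Psme4 is the 1 pair of 11 whose interval includes 0.

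Of 31 other core and 19S subunits tested, 4 rose and 0 fell, where 19.6% of all genes rose and 16.8% fell, with a median log2 fold change of 0.12 against -0.014 for all genes. Of 8 genes listed for the alpha ring, which gates the barrel, 3 rose: Psma5 from 142.4 to 193.1 CPM (0.44 ± 0.09), Psma4 from 189.3 to 253.3 CPM (0.42 ± 0.10) and Psma3 from 179.7 to 226.2 CPM (0.33 ± 0.09). Psma8, also listed there, was at only 3.14 and 2.78 CPM and had the lowest change of the 31 (-0.17 ± 0.17). None of the 4 other beta subunits tested was called, with Psmb4, the most abundant, at 233.2 and 257.0 CPM. Psmb11, the thymus-specific catalytic subunit, had 0 counts in all 6 libraries. None of the 6 ATPases of the 19S base, which unfold substrates, was called, with Psmc1 at 251.8 and 255.2 CPM. Of 13 other 19S subunits 1 rose: Psmd11, from 94.9 to 108.6 CPM (0.19 ± 0.05, adjusted p = 0.0221, edgeR). Of these 4 genes Psma5 kept its call under all 16 alternatives, while total count and upper quartile scaling, and several left-out libraries, ended the calls of Psma4, Psma3 and Psmd11.

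These counts rest on untreated replicate 2, whose values for proteasome genes stood apart. It was the highest untreated library for 8 of the 10 genes (the lowest for Psme3 and Psme4) and for 30 of the 31 other subunits, against 41.4% of all genes. Its counts also leaned toward short transcripts, with a slope of -0.088 log2 units per doubling of exon length, where the other libraries ranged from -0.021 to 0.059. Without it, 23 of the 31 other subunits rose (median 0.20), where 24.0% of all genes rose. With each library's length trend removed, again 23 rose (median 0.16), where 25.5% of all genes did. With scaling by total counts alone 1 rose and 1 fell (median -0.05), where 12.8% of all genes rose and 34.9% fell, and upper quartile scaling gave the same 2 numbers, where 13.9% rose and 31.6% fell. Those scalings moved the median of all genes by -0.17 and -0.147, and put Psmb6, Psmb7, Psme3, Psmb4 and Psmc1 at or below -0.01. The part of transcript length in the differences was not tested. The rises of Psmb8, Psmb9, Psmb10, Psme1, Psme2 and Psme4 passed the test under all 16 alternatives run for each (17 for Psme2), at 0.77 to 1.05, 1.36 to 1.65, 1.31 to 1.66, 0.46 to 0.77, 0.73 to 1.01 and 0.32 to 0.52.

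**Figure D4:**
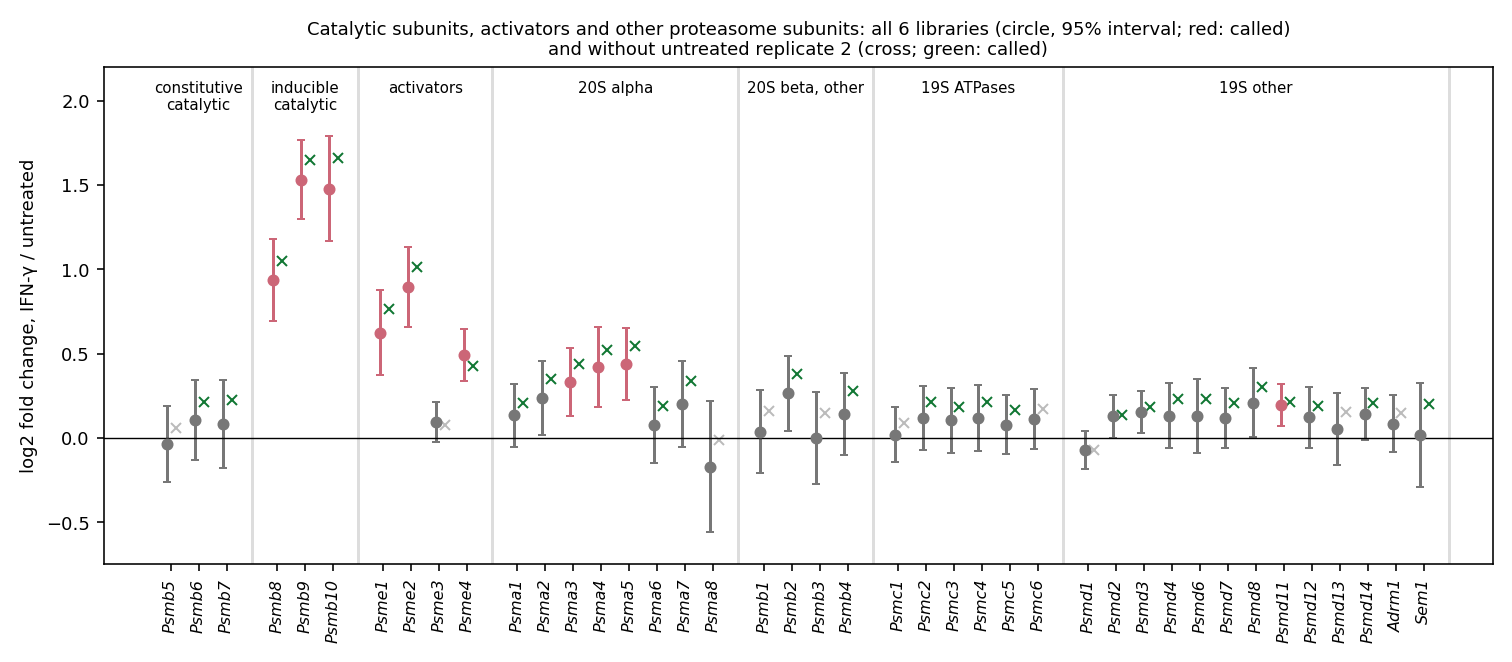
Log2 fold change with IFN-γ of the catalytic subunits, activators and other proteasome subunits, with all 6 libraries (circles with 95% intervals, red where called) and without untreated replicate 2 (crosses, green where called). Psmb8, Psmb9 and Psmb10 lie between 0.93 and 1.53 with all libraries, while the 31 other core and 19S subunits lie between -0.17 and 0.44.

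Genes that build and control the particle are given beside the same shares over all genes, 19.6% higher and 16.8% lower. Of 8 assembly chaperones tested, Psmd10 (gankyrin) rose by 0.43 ± 0.11 and Psmg2, a chaperone of the alpha ring, fell by 0.31 ± 0.09 on the log2 scale. Psmd10 lost its call with total count or upper quartile scaling, and both genes lost theirs without some single libraries (adjusted p up to 0.0706 and 0.0685). Of 11 proteasome-associated regulators 3 rose and 0 fell. Nfe2l2 (NRF2), a transcription factor of the oxidant response, rose from 188.2 to 250.7 CPM (0.41 ± 0.05). Nfe2l1 (NRF1), the factor that restores proteasome genes when proteasomes are blocked, rose from 149.3 to 188.5 CPM (0.34 ± 0.07), a call lost with total count (0.16) or upper quartile scaling (0.19). Psmf1, which encodes the inhibitor PI31, rose from 29.3 to 38.1 CPM (0.38 ± 0.06, adjusted p = 0.00133, edgeR). Of 7 ubiquitin and FAT10 genes 2 rose and 0 fell. Ubd, the gene of the ubiquitin-like tag FAT10 that sends proteins to the proteasome, was without counts (0) in the untreated libraries and had 79, 93 and 96 counts in the treated ones. Set against a floor of 3 counts in each untreated library, it was at least 29.5-fold higher. Uba1, the main ubiquitin-activating enzyme gene, named after its values were seen, rose by 0.33 ± 0.09, which fell to 0.16 with total counts and 0.22 without IFN-γ replicate 1 (adjusted p = 0.203 and 0.0598).

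Downstream of the proteasome, 6 of 9 genes of peptide trimming and transport rose and 1 fell, where 19.6% of all genes rose and 16.8% fell. Tap1 and Tap2, the subunits of the transporter that carries peptides into the endoplasmic reticulum, rose by 2.85 ± 0.07 and 2.03 ± 0.07. Both values exceed those of all 10 proteasome genes, a difference that was not tested. The others were named after their values were seen. Erap1, which trims peptides in the endoplasmic reticulum, rose by 0.87 ± 0.10, and the aminopeptidase gene Lap3 by 0.64 ± 0.06. Tpp2, a giant cytosolic peptidase, rose by 0.29 ± 0.08, Nrd1 (nardilysin) rose by 0.22 ± 0.07, and Thop1, which destroys cytosolic peptides, fell by 0.31 ± 0.07 on the log2 scale. Tpp2 and Nrd1 lost their calls with total count or upper quartile scaling and without any 1 IFN-γ library. The transactivator genes Irf1, Nlrc5 and Irf8 rose by 4.83 ± 0.06, 3.22 ± 0.14 and 2.03 ± 0.05. Their untreated levels were 33.1 CPM for Irf1, 22.9 CPM for Nlrc5 and 138.4 CPM for Irf8.

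Some nearest neighbours of these genes rose and others did not. Coordinates are those of the tables, which name no build: of 35272 symbols shared with RefSeq GRCm38.p6, only 1.7% kept both start and end. Psmb9 lies on chromosome 17 from 34400961 to 34406304 (minus strand, 6 exons), and Psmb8 from 34417169 to 34420428 (plus strand, 6 exons). Tap1 starts 225 bases from the start of Psmb9, head to head with it, and ends 969 bases before Psmb8, which is followed after 3024 bases by Tap2. All 4 genes of this stretch rose. H2-DMb1, a class II peptide-loading gene on the other side of Psmb9, rose by 0.56 ± 0.07.

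Psme1 lies on chromosome 14 from 55815951 to 55818984 (plus strand, 11 exons), and Psme2 from 55824897 to 55828558 (minus strand, 12 exons). Between them lies Emc9, at -0.41 ± 0.15 (adjusted p = 0.0642, edgeR), which passed the test under 7 of 16 alternatives. Rnf31, which encodes the HOIP subunit of the linear ubiquitin ligase, starts 640 bases from the start of Psme2, head to head, and rose by 1.11 ± 0.07. Irf9, a gene of the interferon-stimulated transcription factor complex beyond Rnf31, rose by 0.45 ± 0.05. Psmb10 lies on chromosome 8 from 106662360 to 106665024 (minus strand, 8 exons), next to Ctrl, which had 2, 1 and 4 counts untreated and 18, 22 and 27 with IFN-γ.

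Psmb5 lies on chromosome 14 from 54851577 to 54855452 (minus strand, 3 exons), Psmb6 on chromosome 11 from 70416116 to 70418684 (plus strand, 6 exons) and Psmb7 on chromosome 2 from 38478058 to 38533964 (minus strand, 10 exons). Psme3 lies on chromosome 11 from 101206090 to 101214363 (plus strand, 12 exons) and Psme4 on chromosome 11 from 30721753 to 30831150 (plus strand, 50 exons). Nek6, a kinase gene 555 bases from Psmb7, rose by 0.39 ± 0.05. The autophagy gene Becn1, 12977 bases from Psme3, rose by 0.17 ± 0.05, or 0.00153 with total counts. Becn1 lost its call under 9 of 16 alternatives. Of the 13 different nearest neighbours of the 10 genes that were tested, 7 rose and 0 fell, against the background of 19.6% and 16.8%. The 7 include Becn1 and the low-count Ctrl. The 6 not called were Emc9, Lcat, Aoc2, Acyp2, Erlec1 and 4931414P19Rik, and Mir686, Gltpd2, Gm40193, Gm36744 and Fitm1 had too few counts to be tested.

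**Figure D5:**
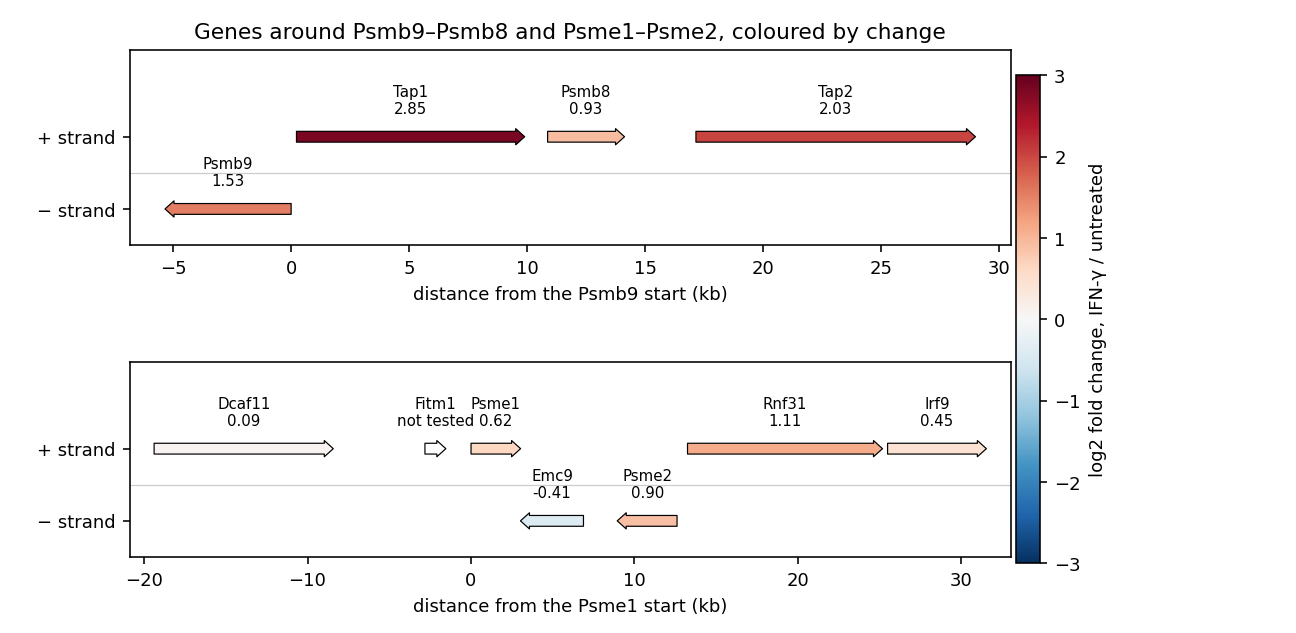
Gene bodies to scale around Psmb9 and Psmb8 (top) and around Psme1 and Psme2 (bottom), as distance in kilobases from the start of the named gene, with strand on the vertical axis and the log2 fold change with IFN-γ as colour and number. Tap1 and Tap2 (2.85 and 2.03) flank Psmb8 (0.93), and Emc9 (-0.41, not called) separates Psme1 (0.62) from Psme2 (0.90).

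Some of these transcripts share sequence with copies, which makes the count of a single gene uncertain, and some with genes on the other strand. In GENCODE M21, 54.9% of the 50-base stretches of Psme2 also occur in Psme2b, an intronless copy on chromosome 11. Psme2b itself was counted at 56.8, 82.9 and 58.8 CPM untreated and at 106.4, 122.7 and 119.0 CPM with IFN-γ, a rise of 0.81 ± 0.14 (adjusted p = 0.00263, edgeR). With its counts added to Psme2, the rise was 0.87 (adjusted p = 0.000528). Of Psmb5, 54.1% of stretches are shared, 46.8% with the pseudogene Gm3375, which the tables do not list. Stretches were matched on both strands. The shares were 28.1% for Psmb7 (with Nek6) and 9.71% for Psmb9 (with Tap1), which are neighbours on the other strand and not copies. By the coordinates given above, these neighbours lie 555 and 225 bases away. For Psmb8 the share was 5.51%, with the antisense gene Gm20496. It was 11.3% for Psme1 and 2.67% for Psmb6, with pseudogenes. Psmb10, Psme3 and Psme4 shared no such stretch. In the coordinates of the tables, however, 156 exon bases of Psme4 (2.04%) overlap exons of Erlec1 on the other strand. For Psme1, 9 exon bases overlap Emc9 on the other strand. These are shares of sequence, not of counts.

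The genes whose pattern over the 6 libraries was nearest to the mean of Psmb8, Psmb9 and Psmb10 were sought among the 9601 other genes that averaged 5 CPM or more, by the Euclidean distance between log2 profiles of CPM (0.5 added) centred on each gene's mean. The nearest 5 were Trim12c, a TRIM family gene (distance 0.0426), Nmi, an interferon-induced regulator (0.113), Marcksl1, a MARCKS-like gene (0.118), Arl5c, an ARF-like GTPase gene (0.147), and the chemokine gene Ccl2 (0.163). Each of them was highest among the untreated libraries in replicate 2, as were Psmb8, Psmb9, Psmb10 and 41.4% of all genes. Their rises ran from 1.26 ± 0.09 for Ccl2 to 1.37 ± 0.10 for Nmi and Marcksl1. Both traits follow from the choice by profile and are not separate results.

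The libraries held 28133342 to 34233607 counts, so that 3 counts correspond to 0.089 to 0.101 CPM. Macrophage markers (8 genes) summed to 19582.2 to 21165.0 CPM untreated and 20778.0 to 22086.4 CPM with IFN-γ. Most of this was Lyz2 (means 15486.8 and 15246.4 CPM), which was not called. Fcgr1 (1.25 ± 0.06), Adgre1 (0.38 ± 0.08) and Csf1r (0.36 ± 0.10) were called higher, and Cd68, Itgam, Mertk and Cd14 were not called. Neutrophil markers (6 genes) summed to 69.7 to 92.5 and 117.7 to 131.0 CPM, mostly S100a8 and S100a9 with Ly6g at 3 counts or fewer. S100a8 (0.67 ± 0.13) and S100a9 (0.69 ± 0.11) were called higher, Elane, Mpo and Camp were not called, and Ly6g was not tested. Dendritic cell markers (6 genes) summed to 2.73 to 2.81 and 5.8 to 6.38 CPM. Most of that gain was Xcr1, which rose from 0.587 to 3.02 CPM (means) and was called. Flt3, Zbtb46, Siglech and Ccr7 were not called, and Cd209a was not tested. Megakaryocyte markers (3 genes) summed to 765.3 to 1100.3 and 728.3 to 800.7 CPM, nearly all of it Pf4 (means 884.8 and 770.0 CPM), with Itga2b at 3.15 and 3.85 CPM and Gp9 at 0.37 and 0.395 CPM. Markers of T, B, NK, mast, stromal and erythroid cells summed to at most 4.94 CPM in any library, with Cd3e and Prf1 at 0 in all. The part of these cells in the proteasome values was not tested. In bulk RNA a change in the number of cells of a type and in RNA per cell cannot be told apart.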

How the data were processed

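The deposited tables hold 1 library each, with a count, TPM and FPKM per gene, per the file headers. The deposited counts are whole numbers per gene, not normalized, and were tested as such. TPM and FPKM deposited by the authors were recomputed from counts and exon lengths to within 2.2e-13. TPM served 1 alternative. HISAT2 and mm10 are named in the submitters' processing notes without a version. The deposited gene coordinates mostly differ from those of RefSeq GRCm38.p6, although mm10 is GRCm38. The build used for counting is therefore uncertain. The counting tool and its use of strand and multiply mapped reads were not given in the sources used here.

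Groups came from the titles. Counts were fitted with edgeR 4.0.16 in R 4.3.3 (filterByExpr with minimum count 10 and minimum total 15, TMM, glmQLFit and glmQLFTest, two-sided, Benjamini-Hochberg over 12968 genes, threshold 0.05). Standard errors (SE) were taken as the log2 fold change over the root of F. Relative changes used the logarithm of a reference gene's count as the offset, with 7 reference genes. Alternatives covered scaling, filters, DESeq2 1.42.0, limma 3.58.1, the replicate block, each left-out library and, added after seeing the data, removal of each library's length trend. Scripts were tested on simulated data. The genes and lists were chosen with earlier results of these data known. Named from a list were its called genes of 2-fold or more, otherwise up to 3 called genes with the largest changes, or the most abundant where none was called, and for each of the 10 genes its nearest neighbours and listed copies. The result of 1 gene that this rule names is not reported here. Intervals cover these libraries only, and floors of 3 counts cover counting error only.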

Additional observations from a re-analysis of the deposited data

How the results depend on the processing

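The catalytic pairs Psmb8 with Psmb5, Psmb9 with Psmb6 and Psmb10 with Psmb7 kept their direction and call under all 10 alternatives, and the 6 called genes among the 10 kept theirs under all of theirs. At this spread and with 3 libraries a group, the intervals of Psmb6 and Psmb7 allow rises of up to 1.27-fold. The causes of the shifts were not tested. Total counts alone gave 1666 genes higher and 4520 lower, and upper quartile scaling 4097 lower. Under total counts the log2 fold changes reversed to -0.06 for Psmb6, -0.09 for Psmb7, -0.08 for Psme3, -0.03 for Psmb4 and -0.15 for Psmc1. Under upper quartile scaling they reversed to -0.04, -0.07, -0.05, -0.01 and -0.13 for the same genes. Psmc1 was at -0.01 with a filter of 5 CPM in 3 libraries, and Psmb5 at 0.00278 with the length trend removed. Over all 16 alternatives Psmb5 ranged from -0.21 to 0.06 and was called under none of them.

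Under both scalings the calls among the lists were 1 higher in the alpha ring, 0 higher and 1 lower among the non-ATPase 19S subunits, 1 and 1 among the 31 other subunits together, 1 and 1 among ubiquitin and FAT10 genes, and 2 lower among the regulators. Of the chaperones 0 were higher, with 4 lower under total counts and 3 under upper quartile scaling. With the length trend removed, the numbers higher were 1 constitutive catalytic subunit, 7 alpha ring, 2 other beta, 4 ATPase and 10 non-ATPase subunits, 23 together, 6 regulators and 3 chaperones, with 2 chaperones lower. With no filter 0 non-ATPase subunits and 2 chaperones were higher, DESeq2 gave 2 chaperones, and the 5 CPM filter gave 1 ubiquitin or FAT10 gene.

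The labels do not say whether replicate numbers pair the libraries. Deviations from the group mean correlated at 0.406, 0.223 and -0.131 for same-numbered libraries, and at -0.453 to 0.326 for differently numbered ones. With 3 libraries a group these values cannot decide whether the libraries are paired. With the replicate block, 2 non-ATPase subunits, 1 other beta subunit, 2 chaperones and 7 of the 31 other subunits were higher, and Psme2 relative to Psme1 stayed at 0.27 without passing the test. The block ended no other call among the 10 genes or their pairs.

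Leaving out 1 library at a time gave 0 to 2 constitutive catalytic subunits higher (2 without untreated replicate 2), 1 to 7 of the alpha ring, 0 to 2 other beta subunits, 0 to 4 ATPases, 0 to 10 non-ATPase subunits and 1 to 23 of the 31 other subunits. The highest numbers came without untreated replicate 2. Chaperones ranged from 0 to 3 higher and 0 to 1 lower, regulators from 0 to 1 lower, and ubiquitin and FAT10 genes from 1 to 2 higher. Psmb5 ranged from -0.09 to 0.06, Psmb7 from -0.01 to 0.22 and Psmc1 from -0.03 to 0.09. Psme1 relative to Psme4 ranged from 0.01 to 0.34, Psme2 relative to Psme4 from 0.29 to 0.59, and Psme2 relative to Psme1 from 0.25 to 0.29.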
